A study of Homo sapiens with 8 samples.

Results

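Glypicans and syndecans are the 2 families of cell-surface proteoglycans that carry most of the heparan sulfate of a cell, and their 10 human genes, GPC1 to GPC6 and SDC1 to SDC4, are described here in small and large human embryonic stem cells. Members were taken by gene symbol: a probe set counted if the array's annotation gave it 1 of these symbols and no other gene. This found 18 of the 54675 probe sets of the array, 10 for glypicans and 8 for syndecans, with at least 1 for each of the 10 genes among 19775 genes that the annotation names. Of these, 15 probe sets for 9 genes were bright enough to be tested, and GPC5 had none among them.

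The cells were H1 hESC, an established human embryonic stem cell line, kept on a feeder layer of irradiated mouse fibroblasts (MEF) and untreated. A flow cytometer separated the large subpopulation from the small subpopulation by forward and side scatter, which follow the size and the granularity of a cell. Each was collected in 4 sorts, which the submitters call independent biological repeats, and each sort was read on its own 1-colour Affymetrix array, giving 4 large and 4 small arrays. Whether the sorts began from separate cultures is not stated, so p-values measure the spread between sorts only, and both groups are fractions of 1 cell line.

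A glypican is a globular protein held in the outer leaflet of the membrane by a glycosylphosphatidylinositol (GPI) anchor, whereas a syndecan crosses the membrane once and ends in a short cytoplasmic tail that binds scaffold proteins. Both carry long heparan sulfate chains near the cell surface, which hold growth factors such as FGFs, WNTs, BMPs and hedgehogs and present them to their receptors. In human pluripotent cells heparan sulfate is known to support signalling by FGF2, the factor used to keep such cells in culture.

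GPC4, the member with the smallest p below, is shown by the 250 bases before its start in RefSeq (GRCh38.p14), chrX:133415490-133415739 on the minus strand. Capitals mark GC boxes (GGGCGG or its complement CCGCCC). The TATA letters (TATAAA or its complement TTTATA) were searched too, both motifs on both strands.
GPC4: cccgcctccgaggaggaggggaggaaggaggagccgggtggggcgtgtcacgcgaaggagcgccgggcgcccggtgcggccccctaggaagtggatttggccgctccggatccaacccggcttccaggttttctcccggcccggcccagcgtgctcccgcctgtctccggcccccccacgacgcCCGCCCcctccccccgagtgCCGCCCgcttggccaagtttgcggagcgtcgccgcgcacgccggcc

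The GPC4 window held 2 GC boxes, neither overlapping the other, and no TATA match, at 76.0% G and C. RefSeq windows were matched by symbol for 8 of the 10 genes, SDC1 with a pair of them. GPC3 had no window. Chromosome 8, where SDC2 lies, was left out of the search for members, so SDC2 is not counted here. Of these 9 windows, 8 held a GC box, against 42.6% of 35116 windows of the same length. SDC4 had 8 matches, SDC3 5, GPC1 4 and GPC2 3. The TATA letters were in the windows of GPC5 and GPC6, against 10.7% of all windows. In 6 of the 9 windows the start is also the outer edge of the gene in RefSeq, while the windows of GPC6, SDC3 and 1 of those of SDC1 precede a start that lies inside the gene. A match describes letters only, and no sequence was tested against expression.

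All 9 tested genes had a lower mean in small cells, and 2 of them, the glypicans GPC3 and GPC4, passed the test. Levels are log2 intensities after quantile normalization between arrays, so they are relative to the RNA on the array, and fewer cells with a transcript cannot be told apart from less of it per cell. Called means an adjusted p under 0.05 in limma (Benjamini-Hochberg over 14726 genes), in a fit without pairs of equally numbered arrays. In the background 1.97% of all genes were called, 1.69% lower in small cells and 0.278% higher in them, and 44.1% had a difference below 0. The median log2 difference (small minus large) of the 9 genes was -0.63, beside 0.05 over all genes. At an unadjusted p under 0.05 there were 5 of the 9 genes, and 2426 of all 14726 genes. The 4 small and 4 large arrays did not overlap for 4 of the 9 genes, each time with the small arrays lower, as was the case for 5.11% of all genes. Of the 15 tested probe sets, 13 had a difference below 0 and 5 had all small arrays below all large ones, beside 47.7% and 5.48% of all probe sets tested.

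Over the whole series, limma called 290 genes, 249 of them (85.9%) lower in small cells, a share of 70.5% when arrays were scaled to their 75th percentile. With 1 array left out, 63 (small array 1 dropped) to 553 (large array 1 dropped) genes were called. None was called by limma with median centring, without a variance trend or with the deposited intensities unscaled, where 1574, 2234 and 494 genes had an unadjusted p under 0.05. The stem cell markers NANOG (10.67 ± 0.08 SD in small, 10.73 ± 0.07 SD in large cells, n = 4 each) and SOX2 (10.29 ± 0.08 and 10.46 ± 0.13) were well above the filter on every array, and neither passed. Among 9 stem cell markers tested, PODXL, itself a sialomucin of the surface, was lower and none was higher. The gap between 3 prime and 5 prime control probe sets of GAPDH and ACTB, a sign of RNA quality, was on the log2 scale 2.38 ± 0.54 (SD) in small and 2.12 ± 0.40 in large cells (exact two-sided permutation p = 0.486), and it was highest within its group on large array 1 (2.66) and small array 3 (3.08). Of markers of other cell types, 0 of 7 fibroblast, 0 of 6 neural, 0 of 4 endodermal and 0 of 4 trophoblast genes tested were called. Their median differences were -0.01, 0.39, 0.71 and -0.14. All 6 neural and all 4 endodermal markers had a difference above 0, up to 1.77 ± 0.52 SE for PAX6 (adjusted p = 0.105), and for TTR (1.33 ± 0.51 SE, adjusted p = 0.208) all small arrays lay above all large ones. Without large array 1 and small array 3, 1 neural marker was called higher, as were 317 of all 14726 genes in that fit. Summed normalized intensities of fibroblast markers were 880 to 1800 in small and 1056 to 2293 in large cells, and those of neural markers 1267 to 2809 and 1322 to 2748. Those of endodermal markers were 156 to 402 and 106 to 277, and of trophoblast markers 185 to 230 and 196 to 281. Some fibroblast markers ran alike over equally numbered arrays. COL3A1 read 7.97, 8.39, 6.28 and 5.10 on large and 7.65, 8.55, 6.73 and 4.91 on small arrays 1 to 4. LUM and DCN were also lowest on array 4 in both groups, while COL1A1, COL1A2, POSTN and PDGFRA were not. PDGFRB, FOXA2 and GATA4 were under the filter. CGA and CGB3 were not tested either, and only 5 of the 6 trophoblast genes listed had a probe set annotated to them alone. The part of these markers in the results below was not tested.

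GPC4 encodes a glypican of embryonic and neural progenitor cells and had the smallest p of the 9 tested genes. Its brighter probe set, 204984_at, read 8.49, 8.66, 8.63 and 9.15 on small arrays 1 to 4 and 9.88, 9.43, 9.61 and 9.73 on large arrays 1 to 4. The highest small array, array 4, lay below the lowest large array, array 2, so the groups did not overlap. The mean was 8.73 ± 0.29 (SD, n = 4) in small and 9.66 ± 0.19 in large cells, a 1.91-fold fall (log2 difference -0.93 ± 0.17 SE, adjusted p = 0.0147), which ranked 67 by p among all genes. As deposited, before any scaling between arrays, this probe set ran from 282 to 704 intensity units in small and from 569 to 1263 in large cells, and the groups overlapped.

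The second GPC4 probe set, 204983_s_at, read 6.41, 6.55, 6.28 and 6.82 on the small and 7.14, 7.78, 7.52 and 7.51 on the large arrays, again without overlap. Its log2 difference was -0.97 ± 0.20 SE (adjusted p = 0.0305 over 32768 probe sets, of which 1.31% were called lower). This call was kept in 2 of the 8 fits with 1 array left out, those without large array 1 and small array 4, and it was lost with the RNA quality measure as a covariate (-0.87, adjusted p = 0.0505). Within arrays, the difference between the GPC4 probe sets was -2.22 ± 0.14 (SD) in small and -2.18 ± 0.45 in large cells (exact two-sided permutation p = 0.8). The GPC4 call on 204984_at was lost when small array 1 (adjusted p = 0.0618), small array 2 (0.0524) or large array 4 (0.0576) was dropped, with log2 differences from -1.07 to -0.85 over all 8 arrays left out in turn. It was also lost with median centring (-0.82, adjusted p = 0.276), without the variance trend (-0.93, adjusted p = 0.118) and with the deposited intensities unscaled (-0.97, adjusted p = 1).

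GPC3, the glypican whose loss causes Simpson-Golabi-Behmel overgrowth and which restrains hedgehog signalling, lies next to GPC4 on chromosome X, with no other protein-coding gene of the RefSeq table between them. Its brighter probe set, 209220_at, read 6.01, 5.55, 5.46 and 6.14 on the small and 6.71, 6.77, 7.0 and 6.58 on the large arrays. Every small array was below every large array. The fall was 1.96-fold, from 6.76 ± 0.18 (SD) to 5.79 ± 0.34 (n = 4 each, log2 difference -0.97 ± 0.21 SE, adjusted p = 0.0312). The dimmer GPC3 probe set, 243243_at, did not share it: it read 4.28 to 4.78 in small and 4.07 to 5.0 in large cells, with a difference of 0.05 ± 0.33 SE, and of -0.10 with the deposited intensities unscaled.

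The disagreement of the GPC3 probe sets was measured within arrays. The log2 ratio of 209220_at to 243243_at, whose size depends on the probes and which is read only between groups, was 1.36 ± 0.21 (SD) on small and 2.39 ± 0.47 on large arrays, without overlap, a difference of -1.03. The exact two-sided permutation p was 0.0286, the smallest that 70 assignments can give, and it was 0.0667 after adjustment over the 7 such pairs of probe sets, the smallest that is possible with 3 pairs at that p. With the mean of its probe sets GPC3 was at -0.46 (adjusted p = 0.325), and with no filter on low values its adjusted p was 0.0523. The GPC3 call was also lost with the RNA quality measure as a covariate (-0.95, adjusted p = 0.0603). Of the 8 fits that leave out 1 array, those without large array 1 (adjusted p = 0.0357) and small array 4 (0.0273) kept the GPC3 call. In the other six adjusted p was between 0.0634 and 0.111, and the difference over all 8 ran from -1.10 to -0.85.

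**Figure D1:**
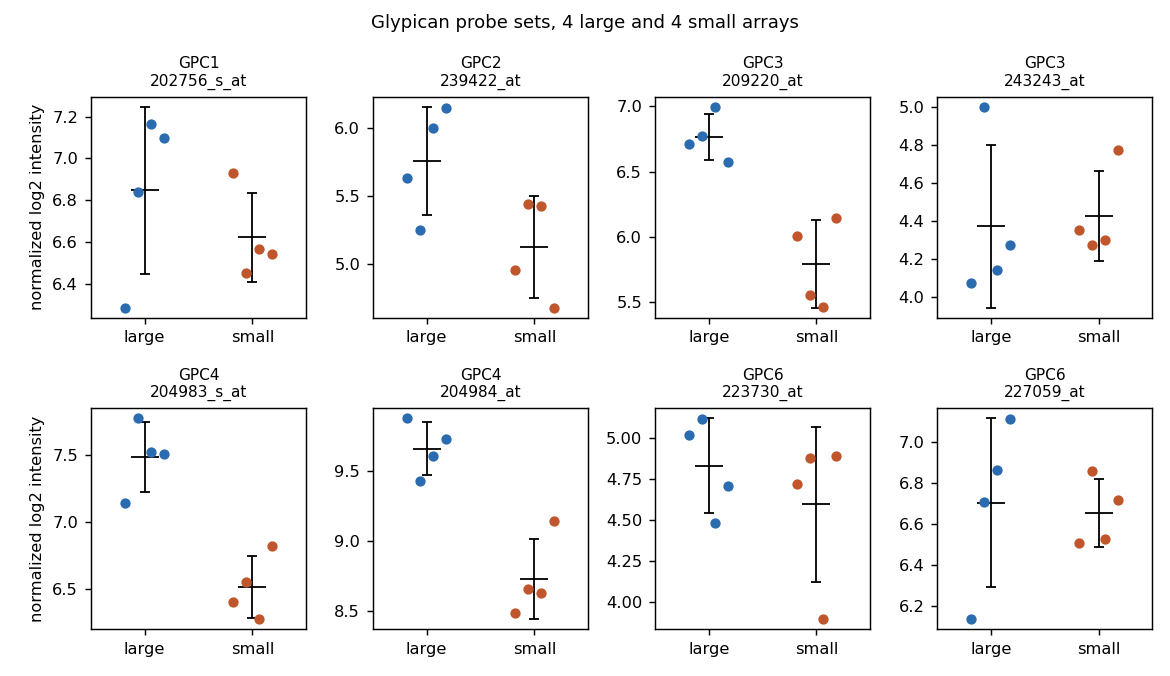
Normalized log2 intensity (vertical axes, each with its own range) of the 8 tested glypican probe sets on 4 large (blue) and 4 small (orange) arrays, drawn in order of replicate number, with horizontal marks for means and bars for SD. Both GPC4 probe sets and GPC3 209220_at are apart between the groups, while those of GPC1, GPC2, GPC6 and GPC3 243243_at overlap.

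The other glypicans did not pass. GPC2, a glypican of developing neurons, was between 4.68 and 5.44 in small and between 5.26 and 6.15 in large cells, and the groups overlapped (log2 difference -0.63 ± 0.27 SE, adjusted p = 0.259). GPC1, a widely expressed glypican that binds FGF2, was at 6.62 ± 0.21 (SD) and 6.85 ± 0.40 (-0.23 ± 0.22 SE, adjusted p = 0.664). Its large array 1, at 6.29, was below all 4 small arrays, while the other large arrays were between 6.84 and 7.17. A second GPC1 probe set, 202755_s_at, stood at the 11th percentile of probe set means, under the filter at the 40th, and was not tested.

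GPC6 is the closest relative of GPC4 and lies beside GPC5 on chromosome 13. Its probe set 227059_at read 6.51 to 6.86 in small and 6.14 to 7.11 in large cells, a difference of -0.05 ± 0.22 SE (adjusted p = 0.942). The second, 223730_at, differed by -0.24 ± 0.31 SE. On both, the small and large arrays overlapped, and the sign of 227059_at turned with the RNA quality measure as a covariate (0.06). GPC5, on its single probe set, stood at the 10.6th percentile, with 1.84 to 3.37 in small and 1.31 to 3.32 in large cells, under the filter, and no fold change is given.

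GPC4 was also set against each other tested member within the same array, on the normalized values. On these same arrays GPC4 had the smallest p of the members and GPC6 the smallest difference, so their ratio is not a separate test. The log2 ratio of GPC4 to GPC6 was 2.08 ± 0.26 (SD) on small and 2.96 ± 0.53 on large arrays, and these values did not overlap. The exact two-sided permutation p was 0.0286, and 0.229 after adjustment over 8 pairs, the smallest that a lone pair can reach here, so the adjusted value does not bear on the size of the difference, -0.88. GPC4 against GPC3 differed by 0.04 between the groups (p = 0.943 in the exact permutation test). The other six pairs had exact permutation p between 0.0857 and 0.514.

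**Figure D2:**
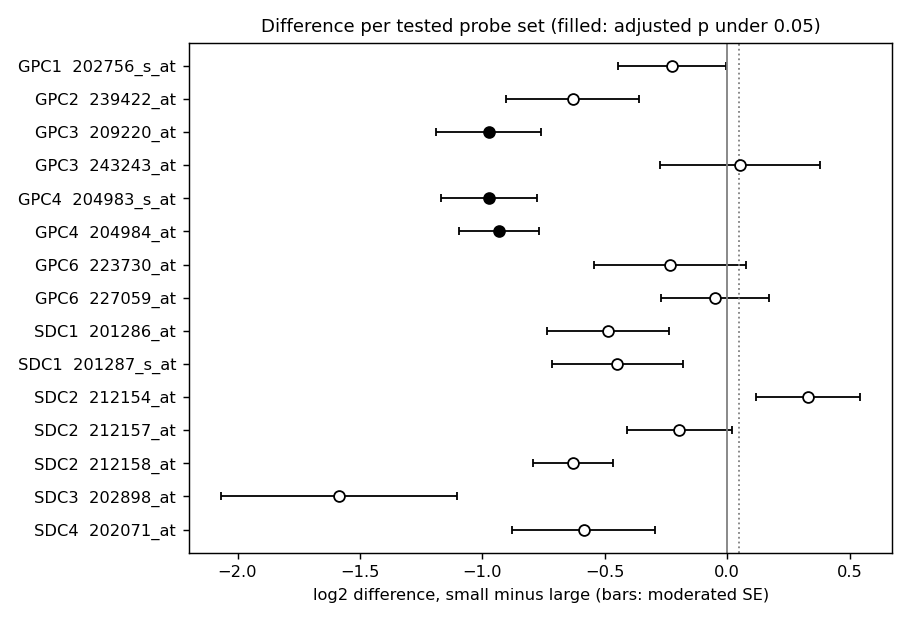
Log2 difference, small minus large (horizontal axis), with moderated SE as bars, for the 15 tested probe sets, filled where adjusted p over probe sets was under 0.05. The dotted line marks the median of all genes, 0.05; 13 of the 15 probe sets lie below 0, and GPC3 243243_at and SDC2 212154_at lie above.

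SDC3, the syndecan of neural and muscle cells, had the largest difference of the 9 tested genes and did not pass. Its probe set 202898_at read 2.98, 2.45, 4.74 and 4.41 on the small and 4.85, 5.26, 5.79 and 5.03 on the large arrays. All small arrays were lower than all large ones, but they split, with arrays 1 and 2 far below arrays 3 and 4. The mean was 3.65 ± 1.10 (SD, n = 4) against 5.23 ± 0.41, a log2 difference of -1.59 ± 0.49 SE (adjusted p = 0.118), the sixth lowest among the 14726 genes. Small arrays 1 and 2 lay below the filter value of 3.62, where the added pseudocount compresses the scale, and with a pseudocount of 16 the difference was -0.89. Without large array 1 and small array 3, the arrays with the widest 3 prime to 5 prime gap in their groups, SDC3 passed at -2.08 (adjusted p = 0.0435). These arrays also held its lowest large and its highest small value, so leaving them out widens the difference by itself. A second SDC3 probe set, 1554864_a_at, was at the 5.71st percentile and was not tested.

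SDC2, a syndecan of mesenchymal cells that also takes part in fibronectin matrix assembly, was read by 3 probe sets that did not give the same answer. The brightest, 212158_at, read 7.36, 7.16, 7.14 and 7.58 on the small and 7.79, 7.95, 7.95 and 8.08 on the large arrays. These did not overlap, and the log2 difference was -0.63 ± 0.16 SE, with adjusted p = 0.0668, above the threshold. 212157_at had a difference of -0.20 ± 0.21 SE with overlapping groups. 212154_at had a mean of 6.64 ± 0.18 (SD) in small and 6.31 ± 0.34 in large cells, a difference of 0.33 ± 0.21 SE (adjusted p = 0.494 over probe sets).

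Within arrays the SDC2 probe sets moved apart. The log2 ratio of 212154_at to 212158_at was -0.93 to -0.27 on small and -2.03 to -1.33 on large arrays, and that of 212157_at to 212158_at was -1.14 to -0.73 on small and -1.56 to -1.15 on large arrays, both without overlap. Both had exact permutation p = 0.0286, again the smallest possible, and 0.0667 after adjustment over 7 pairs, which 3 pairs at that p cannot go below. The mean of the 3 probe sets had a log2 difference of -0.16 (adjusted p = 0.671). 212158_at passed without large array 1 (-0.69, adjusted p = 0.0493).

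SDC1, the syndecan of epithelia, and SDC4, the syndecan of focal adhesions, had smaller differences with overlapping groups. The SDC1 probe set 201287_s_at was at 6.42 ± 0.53 (SD) in small and 6.87 ± 0.34 in large cells (log2 difference -0.45 ± 0.26 SE, adjusted p = 0.429). The second, 201286_at, was at -0.49 ± 0.25 SE, and the log2 ratio of 201286_at to 201287_s_at within arrays differed by -0.04 between the groups (exact permutation p = 0.857). SDC4 read 6.85, 6.93, 7.66 and 6.93 on the small and 6.85, 7.68, 8.44 and 7.75 on the large arrays. Its large array 1 was level with the lower small arrays, and small array 3 was level with large array 2. The difference was -0.59 ± 0.29 SE (adjusted p = 0.334), and without those arrays, large 1 and small 3, it was -1.05 and passed (adjusted p = 0.0222). They hold the lowest large and the highest small value of SDC4, so leaving them out widens the difference by itself. SDC4 passed in 1 of 16 alternative settings, this one, and in 0 of the 8 fits with 1 array left out.

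**Figure D3:**
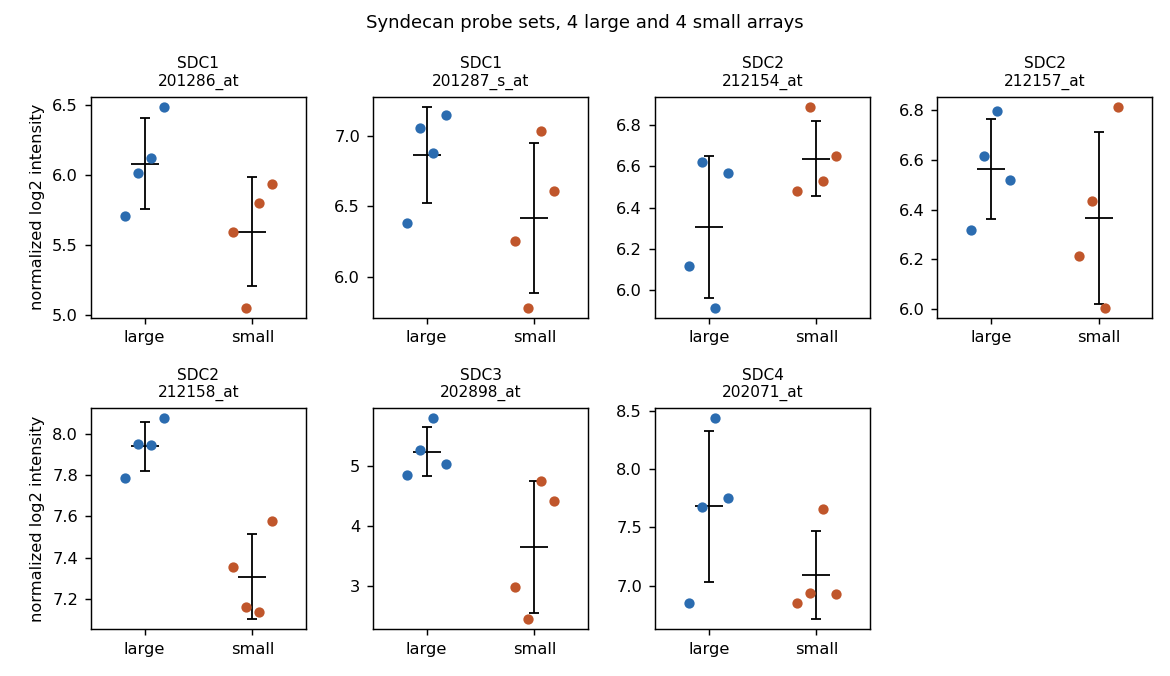
Normalized log2 intensity (vertical axes, each with its own range) of the 7 tested syndecan probe sets on 4 large (blue) and 4 small (orange) arrays, drawn in order of replicate number, with horizontal marks for means and bars for SD. SDC3 202898_at and SDC2 212158_at are apart between the groups, and the other five overlap.

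The number of members called therefore moved with the arrays used. It was 0 when small array 1, small array 2 or large array 4 was left out, 1 when large array 2, large array 3 or small array 3 was, and 3 when large array 1 was. Without large array 1 and small array 3 together it was 4, GPC3, GPC4, SDC3 and SDC4, all lower in small cells. Calls over all 14726 genes rose in that fit too, to 461 lower and 317 higher from 249 and 41. Over the 8 arrays left out in turn, the difference stayed below 0 for 8 of the 9 genes, and for GPC6 it ran from -0.24 to 0.08. GPC1 ran from -0.42 to -0.12, GPC2 from -0.81 to -0.49, SDC1 from -0.64 to -0.24, SDC2 from -0.72 to -0.57, SDC3 from -1.92 to -1.20 and SDC4 from -0.87 to -0.33.

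**Figure D4:**
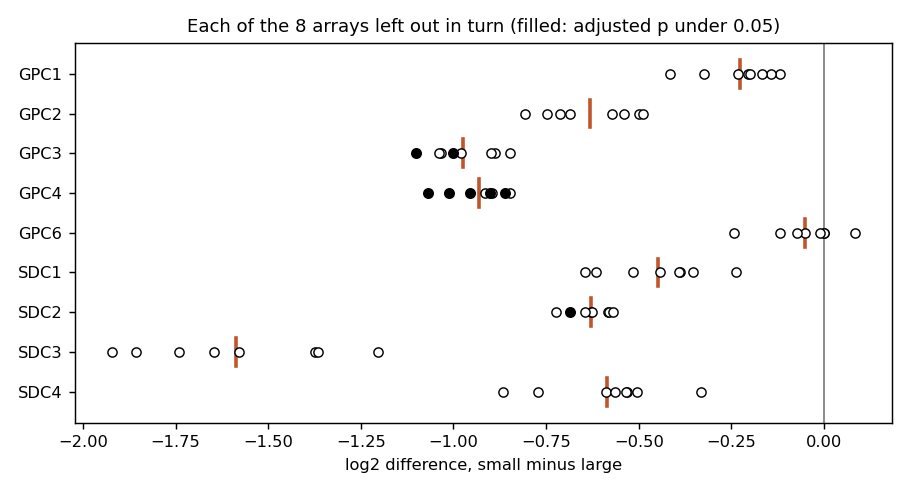
Log2 difference, small minus large (horizontal axis), of the 9 tested genes with each of the 8 arrays left out in turn (circles, filled where adjusted p was under 0.05) and with all arrays (orange marks). GPC4 keeps its call in 5 of 8 fits and GPC3 in 2, and only GPC6 reaches 0.

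The genes whose profile over the 8 arrays was most like that of GPC4, by the root mean square difference after each gene was centred on its own mean, were TMEM245 (0.12 on the log2 scale), CACHD1 (0.12) and the secreted WNT inhibitor SFRP2 (0.14). Their log2 differences were -0.81 ± 0.17 SE, -0.83 ± 0.20 and -0.82 ± 0.14, a likeness to GPC4 that the choice itself fixes.

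Heparan sulfate is built on the core proteins in the Golgi by a tetrasaccharide linker and the polymerase EXT1 with EXT2. Of 11 genes tested for this chain synthesis, 1 was lower and none higher, with a median log2 difference of -0.43. EXT2 read 6.96 to 7.50 in small and 7.99 to 8.21 in large cells, a 1.89-fold fall (-0.92 ± 0.17 SE, adjusted p = 0.0167). A second EXT2 probe set had a difference of -0.42 ± 0.19 SE (adjusted p = 0.318 over probe sets). Dropping small array 2 (adjusted p = 0.0554) or large array 3 (0.0628) ended the EXT2 call.

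The chain is then sulfated and trimmed by NDST, sulfotransferase and SULF enzymes, which decide what it binds. Of 19 genes tested in this group, 1 was higher, none was lower and the median was -0.08. PAPSS2, one of the synthases of the sulfate donor PAPS, was at 8.75 to 9.20 in small and 8.17 to 8.35 in large cells, a 1.63-fold rise (0.70 ± 0.15 SE, adjusted p = 0.028) on 1 of its 3 probe sets, the others being at 0.18 and -0.14. With the mean of the probe sets PAPSS2 was at 0.25 and did not pass (adjusted p = 0.46), and it kept the call in 2 of the 8 fits without 1 array, those without large array 1 (adjusted p = 0.0264) and small array 3 (0.037).

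Glypicans need a GPI anchor, which a set of PIG enzymes makes and a transamidase complex attaches. Of 23 genes of GPI anchor synthesis and transfer tested, 2 were lower and none higher, with a median of -0.32. The small arrays lay below all large arrays for 11 of the 23 and above them for 1, beside 5.11% and 4.92% of all genes. The genes called encode subunits of the transamidase: GPAA1, at 5.87 to 6.74 in small and 7.27 to 7.96 in large cells (-1.06 ± 0.23 SE, adjusted p = 0.0326), and PIGT, at 7.04 to 7.38 and 7.67 to 8.40 (-0.96 ± 0.19 SE, adjusted p = 0.023). The other three subunits, singled out after their values were seen, also had no overlap and did not pass: PIGU at -0.77 ± 0.19 SE (adjusted p = 0.0619), PIGK at -0.67 ± 0.18 and PIGS at -0.57 ± 0.18. With 1 array left out, PIGT kept its call in 4 of 8 fits and GPAA1 in 2. All GPAA1 probe sets end in _x_at, which can bind several transcripts, and with their mean it did not pass (-0.91, adjusted p = 0.139). PIGT did not pass with the mean of its probe sets either (-0.98, adjusted p = 0.181).

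Of 5 other heparan sulfate proteoglycans tested, 1 was lower, agrin, AGRN, a large matrix proteoglycan, at 5.03 to 6.23 in small and 6.34 to 7.17 in large cells (-1.28 ± 0.29 SE, adjusted p = 0.0412). Its 3 probe sets were at -1.28 ± 0.30 SE, -1.14 ± 0.28 and -0.01 ± 0.48, the last being the one whose name does not end in _x_at or _s_at, with adjusted p = 0.052, 0.0673 and 0.995 over probe sets. AGRN kept its call without large array 1 and without small array 3 or 4, in 3 of 8 such fits. It did not pass with the mean of its probe sets (-0.81, adjusted p = 0.127). Nor did it with the RNA quality measure as a covariate (adjusted p = 0.0651) or with no filter on low values (0.0658).

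Genes that release these proteins from the surface had a median of -0.40, with 0 of 8 called by limma. ADAM10 and ADAM17, which shed syndecan ectodomains, were at -0.71 ± 0.20 SE (adjusted p = 0.0886) and -0.78 ± 0.24 (adjusted p = 0.124). ADAM10 passed with the RNA quality measure as a covariate (-0.86, adjusted p = 0.0301), and also when small array 3 was left out (-0.88, adjusted p = 0.0349). Of 5 partners of the syndecan tail tested, 0 were called and the median was -0.06. The syndecan scaffold syntenin, SDCBP, was at 0.23 ± 0.13 SE and the kinase CASK at -0.36 ± 0.16, with adjusted p = 0.403 and 0.286. Of 10 growth factors that bind heparan sulfate, 0 were called and the median was 0.05. FGF4 was at -0.78 ± 0.20 SE (adjusted p = 0.0675) and VEGFA at -0.46 ± 0.26 (adjusted p = 0.415). FGF4 passed with the mean of its probe sets (-1.29, adjusted p = 0.0135). Leaving out small array 4 or large array 1 also brought it past the threshold (-0.92 each, with adjusted p of 0.0444 and 0.027). VEGFA passed without large array 1 and small array 3 (-0.84, adjusted p = 0.046), which held its lowest large and its highest small value. Without large array 1 and small array 3, counts lower in small cells were 2 for chain synthesis, 2 for GPI anchors, 1 for release, 2 for other proteoglycans and 2 for growth factors, and PAPSS2 was again the single higher gene in the modification group. In that fit 461 of all 14726 genes were called lower and 317 higher, beside 249 and 41 with all arrays.

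**Figure D5:**
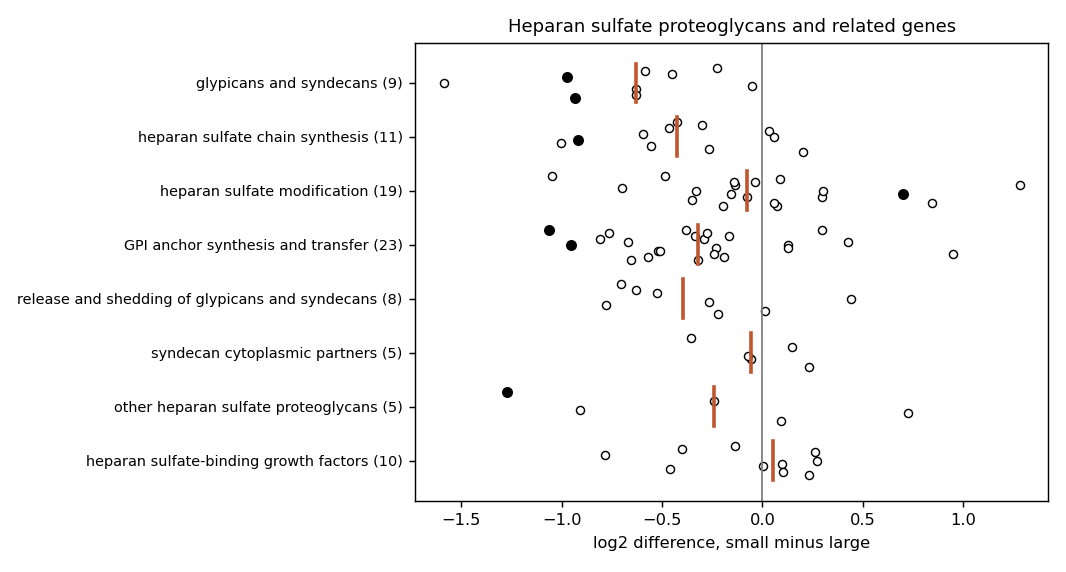
Log2 difference, small minus large (horizontal axis), for each tested gene of the members and of 7 related lists (numbers of genes in brackets), filled where adjusted p was under 0.05, with list medians as orange marks. The members' median of -0.63 lies below those of the 7 lists, which run from -0.43 to 0.05.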

How the data were processed

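Gene expression was measured on 8 arrays of RNA from sorted H1 cells. The deposited table holds 1 linear intensity per probe set and array. Per the series design text the authors read scans with GeneChip Operating Software and moved them into Rosetta Resolver; the program and background correction behind the intensities are not given in the sources used here. Across arrays, the 75th percentiles spanned 1.33 on the log2 scale.

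Before log2, 1.81 was added to each value (the 10th percentile of the table), which understates fold changes of dim genes, and arrays were quantile normalized. Of the probe sets other than 62 controls, the 32768 with a mean above the 40th percentile (3.62) were tested. GEO's platform annotation gave 41091 probe sets 1 symbol, updated by gene ID for 41037. A gene was its brightest tested probe set. Limma 3.58.1 (R 4.3.3) compared small with large arrays (eBayes with a variance trend, two-sided, Benjamini-Hochberg adjustment, threshold 0.05), over genes and separately over probe sets; printed errors are moderated SE, and the number of arrays limits precision. The procedure was checked on simulated data. Groups and replicate numbers came from sample titles. Single values within arrays were compared by exact permutation over 70 assignments.

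Members and lists were chosen with earlier results of these data known. Named were all members, up to 3 called genes per list (or the 2 of smallest p), NANOG, SOX2 and the 3 genes most like GPC4. The alternatives were 16 settings beside each array left out.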

Additional observations from a re-analysis of the deposited data

Results flagged for a closer look

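Among 68 sets of 4 values examined (the member probe sets and the named genes, by group), 7 held a single array far from the other three, and chance alone gives about 1 in 20. Small array 3 was the array apart for SDC4, at 7.66 against 6.85 to 6.93 on the other small arrays, for GPC6 probe set 223730_at, at 3.90 against 4.72 to 4.89, and for GPAA1, at 5.87 against 6.60 to 6.74. That array also had the highest 3 prime to 5 prime log2 difference, 3.08, and its part in these values was not tested. Small array 4 was apart for GPC3 probe set 243243_at, at 4.78 against 4.28 to 4.36, and for CACHD1, at 8.70 against 8.05 to 8.10. Small array 1 was apart for PIGT, at 7.38 against 7.04 to 7.07. Large array 1 was apart for the untested GPC1 probe set 202755_s_at, at 3.39 against 2.36 to 2.46.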

How the results depend on the processing

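All 9 tested members kept their direction in the alternatives that could test them, apart from GPC6. The number of members called, 2 here, was 0 with median centring, without a variance trend and with the deposited intensities unscaled. It was 1 with no filter on low values, with the mean of a gene's probe sets and with the 3 prime to 5 prime gap as covariate. It was 4 with a replicate block, with array weights and without large array 1 and small array 3, and 0 to 3 with 1 array left out. Member probe sets called, 3 here, were 0 with median centring, without a trend and unscaled, 1 with the covariate, and 0 to 3 with 1 array left out. For all genes the 290 became 0 in those same settings (0 with median centring, 0 without a trend and 0 unscaled), 192 when _x_at and _s_at probe sets were left out, 191 with the covariate, 751 with the replicate block, 823 with array weights, 778 without that pair of arrays, and 63 to 553 with 1 array left out. The median of all genes was 0.05, -0.05 unscaled, 0.10 with median centring and 0.09 when scaled to the 75th percentile. Signs turned for GPC6 with the covariate (0.061), for its probe set 223730_at without the pair (0.060), and for GPC3 243243_at unscaled (-0.10) and without the pair (-0.0038). With 1 array left out, GPC6 ran from -0.24 to 0.084, with 0.0010 without large array 3, and GPC3 243243_at from -0.065 to 0.26, with -0.048 and -0.021 without large arrays 1 and 3. NANOG was at 0.14 with median centring, 0.14 with 75th percentile scaling and 0.11 with the mean of its probe sets, and SOX2 at 0.0011 with median centring. None of these reversed values passed. The causes were not tested. Equally numbered arrays deviated together with correlations of 0.10, 0.10, 0.21 and 0.02. Unequally numbered arrays ran from -0.15 to 0.09, and for small arrays 1, 2 and 3 the equally numbered large array correlated highest. These low correlations, taken over all tested probe sets, do not establish pairs. The fibroblast markers COL3A1, LUM and DCN were lowest on array 4 in both groups, as given above. Whether equal numbers mark pairs was not tested. The main fit took no pairs into account. The replicate block, which gave 4 member calls (GPC3, GPC4, SDC2 and SDC3), stands here only. SDC3 was not tested with the filter at the 60th percentile, nor GPC1 without _x_at and _s_at probe sets.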
